A study of Mus musculus with 9 samples.

Results

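The mRNAs of adiponectin (Adipoq), resistin (Retn) and the adiponectin receptors Adipor1 and Adipor2 were followed in 3T3-L1 cells, a clonal mouse preadipocyte line that fills with fat once hormonal inducers are given to the confluent culture. These 4 genes, 2 hormones and 2 receptors, were chosen by name out of 330 genes on the array, and each was read by 1 spot. The chickpea group held 4 cultures, taken on days 2, 4, 6 and 8 of differentiation in medium with 0.5% chickpea extract. The control group held 5 cultures: confluent preadipocytes on day 0, before any inducer, and cells in the same medium without the extract on days 2, 4, 6 and 8. Apart from the day 0 culture, cells of both groups received fetal bovine serum with methylisobutylxanthine, dexamethasone and insulin at first, and insulin without the other inducers later. The labels do not say what the extract contained or whether the cultures of different days were independent of each other. Each medium and day had 1 array and no replicate culture, so differences between cultures and between arrays cannot be told apart, and fewer differentiated cells and less RNA per cell cannot be told apart either.

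Adiponectin is a hormone that adipocytes secrete as multimers and that raises insulin sensitivity in liver and muscle. Its receptors are membrane proteins with opposite orientation to G-protein-coupled receptors. In mouse, AdipoR1 is tied mainly to AMP-activated protein kinase and AdipoR2 to PPAR-alpha. Resistin is a small secreted protein made by adipocytes in mouse, where it opposes insulin action, whereas in human it comes largely from macrophages. Transcription of both hormone genes is known to be driven by PPAR-gamma and C/EBP-alpha as preadipocytes mature, while both receptor genes are expressed in many tissues.

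The 250 bases upstream of each annotated transcript start are shown because C/EBP factors are known regulators of the hormone genes, with the receptor genes set beside them. Sequences are from RefSeq on GRCm38.p6, written 5′ to 3′ along the gene's strand and ending at the base before the start. Capitals mark matches on either strand to CCAAT (the CCAAT box), GGGCGG (a GC box) or TTNNGNAA (a C/EBP recognition pattern).
Adipoq: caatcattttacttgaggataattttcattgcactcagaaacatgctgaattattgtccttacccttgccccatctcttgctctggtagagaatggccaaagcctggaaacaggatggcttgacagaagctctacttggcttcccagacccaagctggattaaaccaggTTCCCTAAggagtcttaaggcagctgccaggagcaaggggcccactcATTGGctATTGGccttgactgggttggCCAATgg
Retn: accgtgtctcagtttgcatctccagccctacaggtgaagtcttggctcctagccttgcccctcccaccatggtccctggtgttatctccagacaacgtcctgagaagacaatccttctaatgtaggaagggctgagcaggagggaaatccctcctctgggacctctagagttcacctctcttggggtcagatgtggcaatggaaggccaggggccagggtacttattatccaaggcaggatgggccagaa
Adipor1: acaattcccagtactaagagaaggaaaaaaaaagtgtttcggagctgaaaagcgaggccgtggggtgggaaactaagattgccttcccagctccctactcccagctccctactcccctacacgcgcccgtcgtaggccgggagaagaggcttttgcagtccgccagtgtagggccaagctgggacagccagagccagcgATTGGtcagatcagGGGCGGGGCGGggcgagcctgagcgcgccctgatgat
Adipor2: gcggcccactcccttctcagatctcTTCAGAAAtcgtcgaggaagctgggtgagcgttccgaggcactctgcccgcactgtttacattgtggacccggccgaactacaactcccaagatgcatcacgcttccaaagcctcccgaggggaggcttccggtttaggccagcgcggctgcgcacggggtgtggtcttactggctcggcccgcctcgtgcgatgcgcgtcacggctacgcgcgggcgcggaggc
The Adipoq window lies at chr16:23146286-23146535 on the plus strand, just before a gene that ends at base 23157968. It held CCAAT at 3 places, all within 34 bases of the start, and TTNNGNAA between 81 and 74 bases before it. The Retn window, chr8:3655520-3655769 on the plus strand before a gene that ends at base 3659818, held none of the 3 patterns. The Adipor1 window, chr1:134415128-134415377 on the plus strand, is the first of 2 annotated starts of a gene that ends at base 134433351. It held CCAAT once and GGGCGG at 2 overlapping places within 37 bases of the start. The Adipor2 window, chr6:119388735-119388984 on the minus strand, precedes a start inside the annotated gene, which spans 119353150 to 119417699. It held TTNNGNAA once, between 225 and 218 bases before the start. Of 32841 mouse windows of the same length, 33.9% held CCAAT, 32.7% GGGCGG and 36.9% TTNNGNAA, so each pattern is common. TATAAA (the TATA box) was in none of the 4 windows and in 12.4% of all windows. AGGTCA, the nuclear receptor half-site, was likewise in none of the 4 and in 14.0% of all, and its direct repeat with 1 base between, the pattern PPAR-gamma and RXR bind, in 0.0335% of all. CANNTG (the E-box) occurred once before Adipoq and at 2 places before Retn, and 66.2% of all windows held it. The windows differed in base composition: GC content was 48.8% for Adipoq with 0 CpG, 54.8% for Retn with 2 CpG, 59.6% for Adipor1 with 15 CpG and 64.8% for Adipor2 with 27 CpG, against a median of 52.4% over all windows. A match is a description of the letters and not a binding site.

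Intensities below are in scanner units after subtraction of the local background. Spots over 10 units were taken as above the limit, which 3 of 369 empty and negative control spots exceeded. Levels for comparison between arrays are log2 values after quantile scaling, with a floor at log2 3.39 to which every lower value was raised. Some spots above the limit were raised too, and 8 genes above it on 2 arrays were constant at the floor. For the 4 genes of this report only spots not above the limit were at the floor. A difference with 1 side at the floor is therefore a bound. Between 62.3% and 73.2% of the 321 metabolic genes were above the limit on each array. From day 4 to day 8 the median spot was at 55 to 64 units on the chickpea arrays and at 129 to 168 units on the control arrays, and the part of this difference in the results was not tested. The 6 adipocyte markers (Fabp4, Plin1, Lpl, Cd36, Lipe and Slc2a4) were all at least 2-fold higher on the control day 8 array than on the day 0 array. On the chickpea day 8 array 5 of the 6 were. Of all tested genes, 16.7% were so on the control and 11.3% on the chickpea day 8 array. Cfd, a further adipocyte marker, is listed below with the secreted factors. On day 8 it stood at least log2 8.03 above day 0 in control and at least log2 0.32 in chickpea medium. The 3 preadipocyte markers (Dlk1, Sfrp2 and Gata2) were all at least 2-fold lower than on day 0 on the day 8 arrays of both media, as were 13.0% of genes in chickpea and 22.2% in control medium. Apoa1, the hepatocyte marker on the array, was not above the limit on any array, and 0 of 5 macrophage and 0 of 3 muscle markers listed were on the array.

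Adiponectin mRNA was not above the limit before differentiation, bright from day 4 on in control medium and far lower in chickpea medium, where it passed the limit on days 6 and 8. The Adipoq spot read -1, 1, 20 and 86 units on days 2, 4, 6 and 8 in chickpea medium. In control medium it read 0 units before induction, then 49, 4326, 7584 and 8554 units on days 2, 4, 6 and 8. In chickpea medium 2 of 4 arrays, those of days 6 and 8, had the spot above the limit, against all 4 control arrays from day 2 on. The highest chickpea value, on day 8, exceeded only the control values of days 0 and 2, so the ranges of both media overlapped over days.

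Against the same day in control medium, Adipoq in chickpea medium was at least 4.11-fold lower on day 2 and at least 111-fold lower on day 4, both bounds because the chickpea spot was at the floor. It was 133-fold lower on day 6 and 31.6-fold lower on day 8, where both spots were measured. The chickpea spot of day 6, at 20 units and log2 3.73, lay close to the floor. Over 6 scalings, with floored values as they stood, the difference was log2 -8.57 to -7.06 on day 6 and -6.64 to -4.98 on day 8. Quantile scaling gave the smallest size on both days. The mean of the 4 same-day differences was log2 -5.22 ± 0.91 or lower (SE, n = 4 days; 95% interval of the fitted value -7.58 to -2.86; limma adjusted p = 0.0288), at least 37.2-fold lower and lower on 4 of 4 days.

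Resistin mRNA followed the same course in control medium but was not detected in chickpea medium on any day. The Retn spot read 0, -1, 0 and 1 units on days 2, 4, 6 and 8 in chickpea medium. In control medium it read -1 unit before induction, then 55, 1781, 3871 and 3428 units on days 2, 4, 6 and 8. The limit was passed on 0 of 4 chickpea arrays and 4 of 4 control arrays from day 2 on, with no overlap between the media.

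Retn in chickpea medium was lower than in control medium by at least 3.93-fold on day 2, 50.3-fold on day 4, 80.1-fold on day 6 and 71.9-fold by day 8. All 4 values are bounds set by the floor, so their order follows the control arrays alone. The mean was log2 -5.03 ± 0.82 or lower (SE, n = 4 days; 95% interval of the fitted value -7.13 to -2.92; limma adjusted p = 0.0256), at least 32.7-fold lower. Retn entered the test through its control arrays alone. Its SE, interval and p set those control arrays against a fixed floor and hold no spread of chickpea levels. In all, 6.28% of the 239 tested genes passed the test downward, 15 genes with Adipoq and Retn among them. Groups did not overlap, with chickpea lower, for 8.79% of genes, Retn among them.

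**Figure D1:**
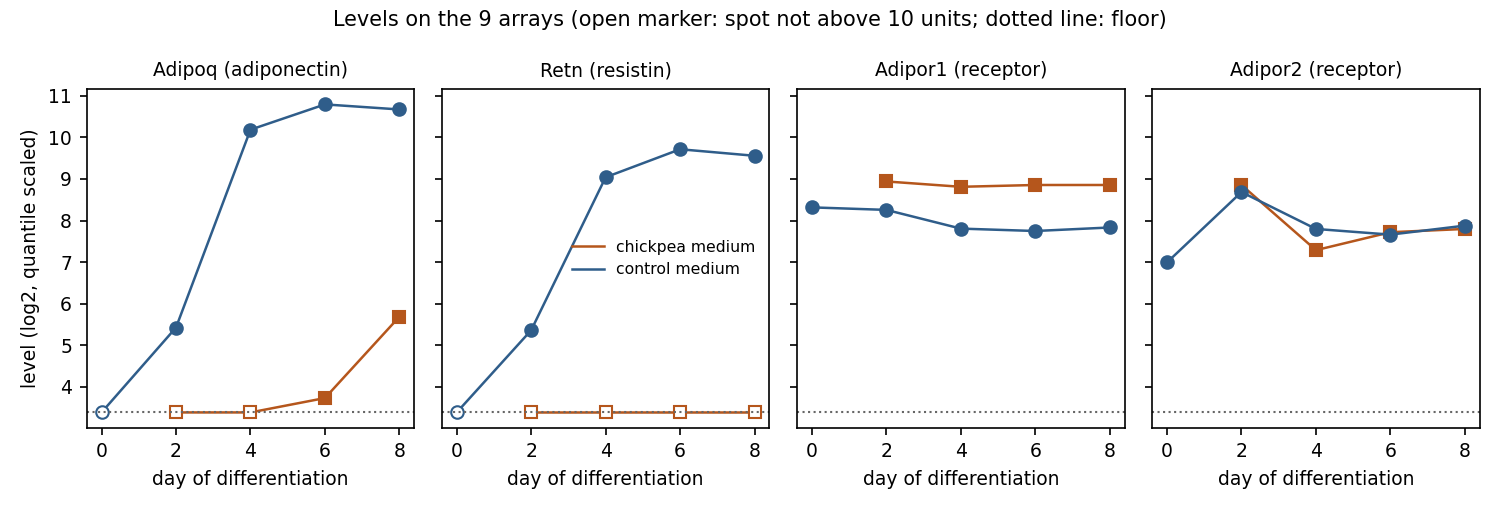
Level (log2, quantile scaled) of each of the 4 mRNAs against day of differentiation, with chickpea medium as squares and control medium as circles, 1 array per point. Open markers are spots not above 10 units and the dotted line is the floor at log2 3.39. Adipoq and Retn stood higher on later days in control medium. In chickpea medium Retn stayed at the floor and Adipoq left it on days 6 and 8, reaching log2 5.69, while both receptors lay well above the floor on all 9 arrays.

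The hormones differed in whether any signal appeared late in chickpea medium. Adipoq there was at least 1.27-fold above day 0 on day 6 and at least 4.92-fold on day 8, whereas Retn and day 0 were both at the floor on every chickpea day, which gives no fold. On single arrays 11.3% of genes were at least 2-fold above day 0 on chickpea day 8, and Adipoq was the 1 of the 4 genes among them. Adipoq had 86 units on chickpea day 8, against 49 on control day 2, while Retn had 1 unit and 55 units on the same arrays. Whether Adipoq and Retn differed from each other in this was not tested, since each value is 1 array.

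The fitted slope of the same-day difference over days 2 to 8 was log2 -0.45 ± 0.38 per day for Adipoq (SE; limma adjusted p = 0.412) and log2 -0.66 ± 0.22 per day for Retn (SE; limma adjusted p = 0.151). Neither passed the test, which 3.35% of genes did. With Retn at the floor on all 4 chickpea arrays and Adipoq on 2, these slopes are fitted to bounds: that of Retn follows the control arrays alone, and that of Adipoq was log2 0.21 with no floor. For Adipor1 the slope was log2 0.056 ± 0.056 per day (SE; limma adjusted p = 0.480) and for Adipor2 log2 -0.0090 ± 0.076 per day (SE; limma adjusted p = 0.952). Without day 8 the slope was log2 -1.25 per day for Adipoq and -1.09 for Retn, and both passed, as they did without the control day 8 array. In all, 33 of 234 genes passed without day 8 and 52 of 235 without the control day 8 array. Without day 8 the fit gave all 4 genes the same SE, log2 0.18, which is pooled over genes and not their own spread. Without the chickpea day 8 array neither hormone passed (adjusted p = 0.166 for Adipoq and 0.137 for Retn). Without day 2 the slope was log2 0.45 for Adipoq and -0.13 for Retn, and neither passed.

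During differentiation in control medium, Adipoq exceeded day 0 by at least 4.11-fold on day 2, 111-fold on day 4, 169-fold on day 6 and 155-fold by day 8. Retn exceeded it by at least 3.93-fold, 50.3-fold, 80.1-fold and 71.9-fold on the same days. These folds repeat those against chickpea medium wherever chickpea and day 0 were both at the floor, because both comparisons use the same control arrays and the same floor. On day 8, 16.7% of genes were at least 2-fold above day 0 on the control array, with Adipoq and Retn as the 2 of the 4 genes among them.

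The day 8 against day 0 fit over all 9 arrays gave log2 7.40 ± 1.65 for Adipoq (SE; limma adjusted p = 0.0884) and log2 5.60 ± 1.47 for Retn (SE; limma adjusted p = 0.112). Neither passed, and 2.09% of genes did. That fit gives both media the same change with day, which these 2 genes did not have, and its SE grows with their spread. Chickpea medium had no day 0 array, so the fitted value is a change at the level of control medium. On the chickpea day 8 array alone, Adipoq stood at least log2 2.30 above day 0, and Retn was at the floor on both. With no floor both passed (adjusted p = 0.0289 for Adipoq and 0.0310 for Retn), and with array weights both passed as well (adjusted p = 0.0181 each). In all, 9 of 247 genes passed with no floor and 32 of 239 with array weights. With no floor the day 0 side was a spot not above the limit, at 0 units for Adipoq and -1 unit for Retn. Those differences therefore have no measured day 0 level.

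Adipor1 mRNA was measured on all 9 arrays and stood higher in chickpea medium on each day after quantile scaling. With control gene scaling the day 4 difference was log2 -0.063. The Adipor1 spot read 911, 654, 796 and 681 units on days 2, 4, 6 and 8 in chickpea medium. In control medium it read 484 units on day 0, then 325, 652, 677 and 911 units on days 2, 4, 6 and 8. In unscaled units the media overlapped, with chickpea higher on days 2 and 6, nearly equal on day 4 and lower on day 8.

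After quantile scaling the Adipor1 level was log2 8.94, 8.81, 8.85 and 8.85 on days 2, 4, 6 and 8 in chickpea medium. In control medium it was log2 8.32 on day 0 and 8.26, 7.81, 7.75 and 7.83 on days 2 to 8. The scaled levels of days 2 to 8 did not overlap, as for 18.4% of genes with chickpea higher. Quantile scaling gives equal values to spots of equal rank on their arrays, which is how days 6 and 8 in chickpea medium came to the same level.

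Adipor1 was 1.61-fold higher in chickpea than in control medium on day 2, 2.01-fold on day 4, 2.15-fold on day 6 and 2.03-fold on day 8. The mean was log2 0.95 ± 0.16 (SE, n = 4 days; 95% interval 0.54 to 1.37; limma adjusted p = 0.0288), 1.94-fold, and it ranked 66 by size among the 239 genes. Upward, 8.79% of the tested genes passed, 21 genes with Adipor1 among them. The median of all tested genes was log2 0.21 in this comparison, and Adipor1 lay above that median.

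This call depended on how arrays were set on a common scale. The mean Adipor1 difference was log2 0.59 with median scaling (limma adjusted p = 0.0791), 0.52 on the deposited values (0.437), 0.33 in unscaled units (0.784) and 0.18 with control gene scaling (0.568). It was positive under all of these and passed under 75th percentile scaling besides quantile scaling. The median of all genes tested was log2 -0.05 on the deposited values, -0.04 with median, 0.07 with 75th percentile and -0.38 with control gene scaling, and -0.33 in units. On the deposited values the difference was log2 1.60 on day 2 and between 0.012 and 0.28 on the other days.

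The calls of Adipoq, Retn and Adipor1 also changed when some single days were left out. Without day 4 the adjusted p was 0.139 for Adipoq, 0.133 for Retn and 0.175 for Adipor1, and without day 6 it was 0.114, 0.112 and 0.183 in the same order. These losses were general, since 0 of 236 genes passed without day 4 and 4 of 235 without day 6. Without day 2 all 3 passed (limma adjusted p = 0.00388, 0.000518 and 0.0161 in the same order), and 71 of 235 genes did in all. Adipoq missed the threshold without day 8 (adjusted p = 0.0519), and so did Retn when the day 8 array of chickpea medium (0.0752) or of control medium (0.0602) alone was left out. On the deposited values Adipoq and Retn had differences of log2 -5.57 and -4.99 and did not pass (adjusted p = 0.142 each). None of these changed the direction of the 3 genes, and over all settings tried the hormone differences lay between log2 -8.22 and -4.23.

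Adipor2 mRNA showed no difference between media that passed the test, and its quantile-scaled level on the day 2 arrays stood apart. The Adipor2 spot read 858, 250, 404 and 367 units on days 2, 4, 6 and 8 in chickpea medium. In control medium it read 191 units on day 0, then 459, 648, 648 and 931 units on days 2, 4, 6 and 8. In units, chickpea was higher on day 2 and lower on days 4, 6 and 8.

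After scaling, Adipor2 was at log2 8.85, 7.29, 7.72 and 7.80 on days 2, 4, 6 and 8 in chickpea medium, against log2 8.68, 7.80, 7.66 and 7.88 on those days in control medium and 6.99 on day 0. With quantile scaling the highest level of each medium was that of day 2, and the lowest of all 9 that of day 0. On the deposited values chickpea days 4, 6 and 8 lay below day 0. In units control days 4, 6 and 8, at 648, 648 and 931, all lay above control day 2, at 459. With 1 array each, the order of days 4, 6 and 8 within a medium cannot be set against any replicate spread. The same-day differences were log2 0.17, -0.51, 0.06 and -0.08, with a mean of -0.09 ± 0.18 (SE, n = 4 days; 95% interval -0.57 to 0.39; limma adjusted p = 0.727). The width of that interval means that the miss does not show the media to be alike. Under the other scalings the mean lay between log2 -0.77 and -0.16 and passed under none of them.

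**Figure D2:**
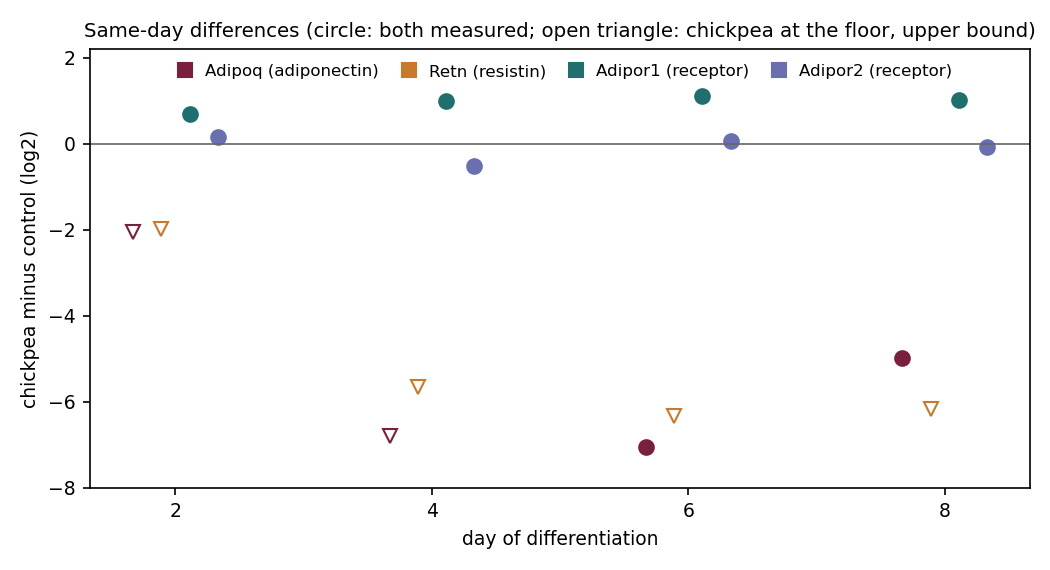
Same-day difference, chickpea minus control (log2, quantile scaled), of the 4 mRNAs by day of differentiation. Filled circles are differences with both spots measured, and open triangles are upper bounds with the chickpea spot at the floor. The hormone points lie between -7.06 and -1.98, the Adipor1 points between 0.68 and 1.11 and the Adipor2 points between -0.51 and 0.17.

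Against day 0, Adipor2 was 3.63-fold higher on day 2 in chickpea medium and 3.23-fold higher on day 2 in control medium. On the deposited values these folds were 2.98 in chickpea and 1.47 in control medium. With both day 2 arrays in the fit, the difference was log2 1.82 ± 0.33 (SE; limma adjusted p = 0.0672), past an unadjusted p of 0.00291 but not past the adjusted threshold, which 1.26% of genes passed on day 2. At least 2-fold above day 0 on the control day 2 array stood 15.1% of genes, and Adipoq, Retn and Adipor2 were the 3 of the 4 among them. By day 8 Adipor2 was 1.75-fold above day 0 in chickpea medium and 1.84-fold in control medium, with a fitted difference of log2 0.89 ± 0.33 (SE; limma adjusted p = 0.196). Adipor1 on day 8 was 1.45-fold above day 0 in chickpea medium and 1.40-fold below it in control medium (fitted log2 -0.45 ± 0.29, SE; limma adjusted p = 0.40). These day 8 directions depended on the scaling. On the deposited values Adipor1 was 1.90-fold below day 0 in chickpea medium and 2.17-fold below it in control medium, with a fitted log2 of -1.28. Adipor2 was there 1.39-fold below day 0 in chickpea medium and 1.18-fold above it in control medium, with a fitted log2 of 0.094. All of these comparisons share the single day 0 array, and each fitted value is a change at the level of control medium.

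Hormones and receptors were then compared within the same arrays. Every Retn value, and those of Adipoq on days 2 and 4, are bounds with the chickpea spot at the floor, so an array's own factor does not cancel there and the true differences are as given or lower. Retn lies in the array's block 2 and Adipoq and the receptors in block 1, which the authors scaled separately. The chickpea minus control difference of Adipoq minus that of Adipor1 was log2 -2.72, -7.80, -8.16 and -6.00 on days 2, 4, 6 and 8. With bounds taken at their value, the mean over days of Adipoq minus Adipor1 was log2 -6.17 ± 2.49 (SD, n = 4 days), and of Adipoq minus Adipor2 log2 -5.13 ± 2.15. Retn minus Adipor1 averaged log2 -5.98 ± 2.24 and Retn minus Adipor2 log2 -4.94 ± 1.94 (SD, n = 4 days each). Each of the 4 pairs was below 0 on 4 of 4 days. The exact two-sided sign-flip test over days gave p = 0.125 for each pair, also after adjustment over the 4 pairs, and 0.125 is the smallest p that 4 days allow. With other scalings the 4 means lay between log2 -6.93 and -4.57, and leaving out 1 day at a time gave log2 -7.32 to -4.46.

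The receptors were also compared with each other, a comparison made after the values had been seen, and the test did not pass. The chickpea minus control difference of Adipor2 minus that of Adipor1 was log2 -0.51, -1.51, -1.05 and -1.10 on days 2, 4, 6 and 8, a mean of log2 -1.04 ± 0.41 (SD, n = 4 days; exact two-sided sign-flip p = 0.125). Both spots lie in the same array block, so their ratio in units does not depend on scaling between arrays. From the unscaled units the chickpea minus control difference of log2 Adipor2 over Adipor1 was -0.58, -1.38, -0.92 and -0.92 on days 2, 4, 6 and 8, a mean of -0.95 ± 0.33 (SD, n = 4 days; exact two-sided sign-flip p = 0.125). Relative to day 0 this log2 ratio was 1.25, -0.05, 0.36 and 0.45 on days 2, 4, 6 and 8 in chickpea medium. In control medium it was 1.84, 1.33, 1.28 and 1.37 on the same days. The ratio stood above day 0 on all 4 later control arrays and was closest to it on day 4 of chickpea medium.

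**Figure D3:**
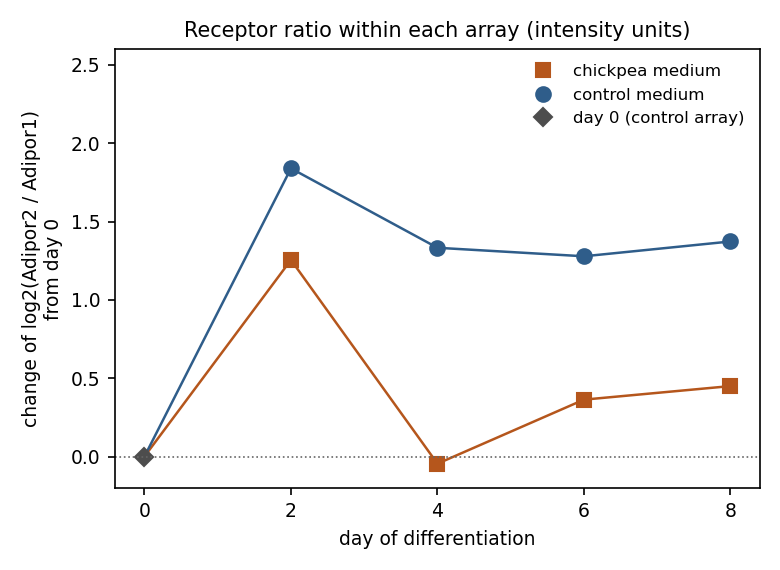
Change of log2 of the Adipor2 to Adipor1 ratio from day 0, from unscaled intensity units within each array, by day of differentiation. Chickpea squares lie between -0.05 and 1.25 and control circles between 1.28 and 1.84, with chickpea lower on each day.

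**Figure D4:**
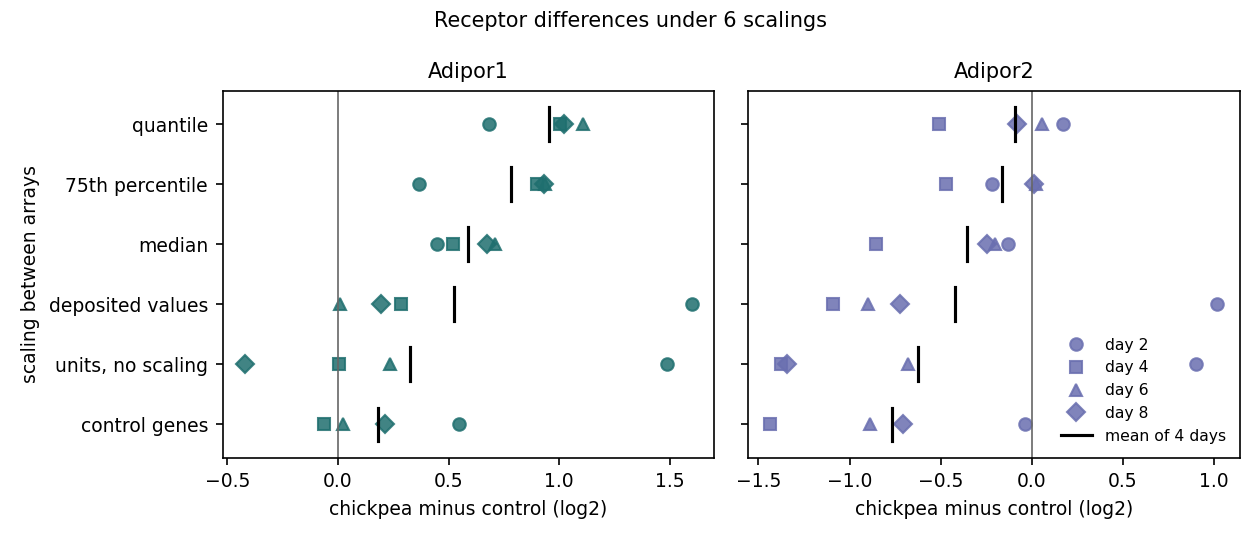
Chickpea minus control difference (log2) of Adipor1 and Adipor2 by day under 6 ways of scaling the arrays, with a bar at the mean of 4 days. The Adipor1 mean lies between 0.18 and 0.95 and the Adipor2 mean between -0.77 and -0.09, and the day 2 point stands apart on the deposited values and in units.

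Of 19 listed genes downstream of the receptors, 11 were on the array and 9 were tested, of which 1 passed upward and 0 downward with limma, where 8.79% and 6.28% of all tested genes did. Ppargc1a, the transcriptional coactivator of mitochondrial genes, rose by log2 2.57 ± 0.33 (SE, n = 4 days; limma adjusted p = 0.0141), at 94 to 276 units in chickpea medium and 9 to 131 units in control medium. Cpt1a, which carries fatty acids into mitochondria, differed by log2 2.07 ± 0.49 (SE; limma adjusted p = 0.0512) and missed the threshold. Of the AMP-activated protein kinase subunits, the beta subunit gene Prkab1 differed by log2 0.82 (limma adjusted p = 0.0620), the catalytic Prkaa1 by 0.26 and the gamma subunit gene Prkag2 by 0.25. The upstream kinases Camkk2 and Stk11 differed by log2 0.78 and 0.18, and none of these 5 passed. The median of the 9 was log2 0.45, against 0.21 over all genes tested. Differences of Prkaa1, Prkag2, Stk11, Mapk14 and Acaca changed sign with the scaling, and that of Ppargc1a lay between log2 1.53 and 2.57. Ppara was not above the limit on any array.

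Of 13 listed transcription regulators of the hormone genes, 9 were on the array and 8 were tested. Of these 1 passed downward and 0 upward, where 6.28% and 8.79% of all tested genes did. Pparg, the nuclear receptor that drives adipocyte genes, fell by log2 1.60 ± 0.25 (SE, n = 4 days; limma adjusted p = 0.0248), at 131 to 295 units in chickpea medium and 289 to 1312 units in control medium. Its difference lay between log2 -2.31 and -1.60 over 6 scalings. Cebpa, the C/EBP factor of late differentiation, differed by log2 -0.84 (limma adjusted p = 0.0635) and Cebpb, an early one, by 0.88 (limma adjusted p = 0.0620). Over 6 scalings the Cebpb difference lay between log2 -0.19 and 0.88, so its sign turned, and that of Cebpa between -1.51 and -0.84. Creb1 differed by log2 1.09 (limma adjusted p = 0.0609) and was positive under all 6. None of these passed. The median of the 8 was log2 -0.58, against 0.21 over all genes tested.

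Of 15 other adipocyte-secreted factors listed, 11 were on the array and 10 were tested, of which 3 passed downward, as did 6.28% of all tested genes, and 0 upward. Cfd, the complement protease adipsin, differed by log2 -6.52 ± 0.89 or lower, since its chickpea spots were at 2 to 15 units, against 106 to 13277 in control medium (SE, n = 4 days; limma adjusted p = 0.0173). Hp, haptoglobin, differed by log2 -4.37 ± 0.64 or lower, with chickpea at 4 to 6 units and control at 47 to 1780 units (SE; limma adjusted p = 0.0182). No chickpea spot of Hp passed the limit, so its SE and p also set control arrays against a fixed floor. C3, the central complement component, fell by log2 4.17 ± 0.35 (SE; limma adjusted p = 0.0067), at 160 to 423 units in chickpea medium and 2113 to 12028 units in control medium. Among those that did not pass, Agt, angiotensinogen, differed by log2 -1.56 (limma adjusted p = 0.214). The median of the 10 was log2 -0.34. Lep was above the limit on 1 array and was not tested. Of the 6 adipocyte markers 2 passed downward and 0 upward, Plin1 at log2 -3.14 ± 0.32 or lower (SE; limma adjusted p = 0.0102) and Lipe at log2 -3.32 ± 0.21 (SE; limma adjusted p = 0.00411), with a list median of log2 -2.03. Cd36, the fatty acid transporter, lay the other way at log2 0.90 ± 0.87 (SE; limma adjusted p = 0.446), with log2 4.20 on day 2, and turned sign under 1 of 6 scalings. Of the 3 preadipocyte markers Dlk1 alone passed, downward too, at log2 -1.24 ± 0.18 (SE; limma adjusted p = 0.0173). Sfrp2 differed by log2 -0.24 (limma adjusted p = 0.348) and Gata2 by log2 0.088 (limma adjusted p = 0.663). The part of these marker differences in the hormone differences was not tested.

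Over the 9 arrays, the genes whose scaled levels were most like Adipoq were Retn (Pearson r = 0.975), Cfd (0.973) and Hp (0.970), out of 238 others. Those most like Retn were Hp (r = 0.998), Cfd (0.997) and Gpd1 (0.978), and these share 4 or 5 arrays on which both genes were at the floor. Most like Adipor1 were Hras (r = 0.946), Slc6a6 (0.929) and Stx4a (0.924), and most like Adipor2 were Ppard (r = 0.778), Prkaa1 (0.731) and G6pdx (0.715). Between hormones and receptors r was -0.874 for Adipoq with Adipor1 and -0.926 for Retn with Adipor1, but -0.01 and 0.02 for the hormones with Adipor2, and 0.13 between the receptors. These r values describe 9 arrays that share the same quantile scaling and the same floor. Each array is a different medium and day, so the r values hold no replicate spread.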

How the data were processed

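RNA of 9 cultures was labelled with 1 dye and hybridised to arrays with 321 metabolic genes and control probes. Per the file headers, spots were scanned with GenePix Pro 6.1.0.4 as median intensity minus local background. The deposited table holds linear intensity values, and its making is not stated there. Every value equalled a spot's units plus a small offset, with Gapdh spots brought to a mean of 10000 in each of 2 blocks (relative tolerance 1e-06). That match alone names the rows and ties wells to samples. On the slide, 3 wells were not used.

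Deposited intensity was log2 transformed, quantile scaled and floored at the highest over arrays of the lowest level among genes above 10 units, a limit chosen after the files had been seen. Of 247 genes above the limit on 2 arrays, 8 were constant, leaving 239. limma 3.58.1 (R 4.3.3) fitted the chickpea effect on 8 arrays (days 2 to 8), blocked by the labelled day (3 residual degrees of freedom), its linear change with day (2), and each day against day 0 over 9 arrays (3, with 1 medium effect). The fit lets day-to-day variation of the difference stand for error. A day 0 contrast assumes that the single day 0 array varies like the others. It is set at the level of control medium, since chickpea medium had no day 0 array. All p-values are two-sided and Benjamini-Hochberg adjusted over all tested genes, with a threshold of 0.05. Pairs were tested with an exact sign-flip test (Python 3.11.15). Scripts were tested on simulated data. Names matched current symbols for 318 probes and synonyms for 13. The most alike genes were the 3 with the highest Pearson r. Alternatives covered scaling, filter, floor, spot averaging, variance prior, array weights, day block and each day or array left out. The members and lists were chosen with earlier results of these data known. A list of genes for adiponectin folding and secretion had 0 of 5 members on the array.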

Additional observations from a re-analysis of the deposited data

How the results depend on the processing

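The number of arrays, 1 for each medium and day, limits every comparison, and an exact test over 4 days cannot go below p = 0.125. No paired analysis by replicate was possible because each medium and day had 1 array; day served as the block. The direction of the chickpea effect of Adipoq, Retn and Adipor1 stayed under every alternative. On the deposited values the effects were log2 -5.57 for Adipoq, -4.99 for Retn and 0.52 for Adipor1, none of them past the threshold. Adipor1 also missed it with median scaling (0.59), control gene scaling (0.18) and units (0.33). The count of genes passing was 36 (21 higher, 15 lower), against 0 on the deposited values with limma (44 at an unadjusted p under 0.05), 15 in units, 114 with array weights and 73 without the day block. The split was 7 higher and 23 lower with median, 17 and 18 with 75th percentile and 0 and 29 with control gene scaling, and 0 and 15 in units.

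Leaving out 1 day or array gave log2 -6.28 to -4.61 for Adipoq, -6.05 to -4.60 for Retn, 0.90 to 1.04 for Adipor1, -0.18 to 0.049 for Adipor2 and 0 to 71 genes. In the limma fit without day 4, 0 genes passed (47 unadjusted), 4 passed without day 6 and 71 without day 2.

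The change of the difference with day turned for Adipor1 with control gene scaling (-0.046), in units (-0.27) and on the deposited values (-0.22), for Adipor2 with median (0.016) and 75th percentile scaling (0.059) and array weights (0.074), and for Adipoq with no floor (0.21). Its count was 8 genes, and 0 with control gene scaling (54 unadjusted), 0 on the deposited values (46 unadjusted), 3 with median scaling, 25 in units, 3 with no floor and 4 with array weights. With 1 day or array left out it ran over -1.25 to 0.45 for Adipoq, -1.09 to -0.13 for Retn, -0.040 to 0.11 for Adipor2 and 0 to 52 genes.

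The day 8 against day 0 difference of Adipor1 turned in units (0.54). Adipoq and Retn passed with no floor (11.10 and 10.15) and with array weights (7.97 and 6.01). Left out in turn, arrays or days gave 7.09 to 7.93 for Adipoq, 4.65 to 6.17 for Retn and 0 to 30 genes. The count was 5 genes, and 0 with control gene scaling (34 unadjusted) and on the deposited values (49 unadjusted), 3 with median scaling, 3 in units, 8 when genes had to be above the limit on 4 arrays, 11 with a limit of 20 units, 9 with no floor, 9 with an intensity trend in the prior and 32 with array weights. No value without day 0 exists for this comparison. The cause of these shifts was not tested, except that leaving out days leaves fewer arrays.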
